A study of Mus musculus with 2 samples.

Results

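The cytoplasmic ribosomal protein genes were taken from a table of cluster marker genes by name. A gene was a member if its name was Rpl or Rps followed by a number, with at most 1 letter and 1 digit after it, or if it was Rplp0, Rplp1, Rplp2 or Rpsa, while names with -ps and the Rps6k kinases were left out. This rule found 87 members among the 18319 genes that the table names, of which 51 belong by name to the large ribosomal subunit (60S) and 36 to the small one (40S). The table came from single-cell RNA sequencing on the inDrop droplet platform of 2 tumors, 1 library each, in female mice of the NuJ strain, a nude strain without a functional thymus. The tumors grew from injected mouse dysplastic stem cells, labelled DP-DSC. The cystic adenocarcinoma was taken at 10 weeks and the tubular adenocarcinoma at 13 weeks after injection, and both are labelled as tumor cells. The table does not tell the 2 tumors apart, so they could not be compared, and no value below has an error over animals.

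Each ribosome pairs a large subunit, which forms peptide bonds and holds the exit tunnel for the new protein, with a small subunit, which reads the messenger RNA. Most of their proteins are needed in equal number, and their messenger RNAs are among the most abundant in any cell. Many of these messenger RNAs begin with a run of pyrimidines, the terminal oligopyrimidine (TOP) motif, through which TOR signalling controls their translation together.

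For each of 11 clusters, the authors' deposited table lists the genes with a fold above 1.5, in order of p-value. What each fold was measured against is not written in it, and if every cluster was set against the others, the clusters share reference cells. Genes that stand in a cluster's column are called listed there, and those with a deposited fold of 2 or more and a deposited p of 0.05 or less are called raised. That p rests on cells, which are not replicates, and served only as a filter. A gene that is not listed has no value in the table, so no gene below is described as low. The depth per cell and the number of cells per cluster are unknown. Marker genes placed several clusters. All 5 named erythroid markers were raised in cluster 2, all 6 macrophage markers in clusters 4 and 8, all 5 dendritic markers in cluster 8, all 5 neutrophil markers and all 5 T and NK markers in cluster 10, and all 5 fibroblast markers in cluster 11. Cluster 4 also raised 3 of the 5 dendritic markers, and cluster 10 raised 2 of the 5 dendritic and 2 of the 6 macrophage markers. The 4 named gastric surface mucous markers were all raised in clusters 6 and 9, and 2 of them in cluster 3. Cluster 1 listed all 5 erythroid markers and raised 0. Clusters 1, 5 and 7 are given by number only. Of 5 general epithelial markers, clusters 6 and 9 raised 3 each, clusters 3 and 7 raised 2 each and cluster 5 raised 1. Clusters 4, 5 and 6 each raised 1 of 4 named mast cell markers, and cluster 7 listed 0 of the 4 surface mucous markers.

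All 80 genes of the standard set of cytoplasmic ribosomal proteins were named in the table. The name rule took 77 of them, 46 large and 31 small, while Fau and Rack1, given further on, are among those that carry other names. The remaining 10 members were copies. GENCODE M21 types 4 of these as protein coding (Rpl7l1, Rpl22l1, Rpl39l and Rps27l) and 6 as processed pseudogenes (Rpl6l, Rpl32l, Rps3a2, Rps3a3, Rps4l and Rps12l1), intronless copies of a messenger RNA. The label of cytoplasmic ribosomal protein genes is therefore not borne out for those 6. RefSeq lists Rpl32l as protein coding.

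The sequences of copies and parents are shown because they bear on which gene a read can be assigned to. Each pair below covers 60 coding bases near the 3′ end of the parent's coding sequence, read from GENCODE M21 transcripts, with bases that differ within the pair in capitals.
Rps12: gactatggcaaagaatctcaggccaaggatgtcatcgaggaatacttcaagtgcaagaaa
Rps12l1: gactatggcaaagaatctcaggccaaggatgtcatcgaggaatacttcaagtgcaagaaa
Rps3a1: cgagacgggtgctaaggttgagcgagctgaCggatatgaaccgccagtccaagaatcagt
Rps3a3: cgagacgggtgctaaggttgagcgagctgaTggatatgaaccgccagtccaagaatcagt
Rps4x: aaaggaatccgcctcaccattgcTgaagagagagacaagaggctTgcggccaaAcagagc
Rps4l: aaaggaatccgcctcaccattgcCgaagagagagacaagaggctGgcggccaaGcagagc
Rpl39: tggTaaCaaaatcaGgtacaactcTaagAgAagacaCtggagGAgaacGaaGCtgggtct
Rpl39l: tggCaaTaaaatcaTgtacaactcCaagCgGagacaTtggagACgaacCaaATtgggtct

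The stretch of Rps12 and Rps12l1 had 0 differing bases, that of Rps3a1 and Rps3a3 had 1, that of Rps4x and Rps4l had 3 and that of Rpl39 and Rpl39l had 12. Over the whole aligned coding sequence Rps12l1 was identical to Rps12 at all 396 bases, Rps3a2 and Rps3a3 matched Rps3a1 at 99.5% and 99.0%, Rpl6l matched Rpl6 at 98.7%, and Rpl32l matched Rpl32 at 97.5%. Rps4l was the most diverged of the pseudogenes, at 81.2% identity to Rps4x. Among the coding copies Rpl39l matched Rpl39 at 85.5% over nearly the whole sequence and Rps27l matched Rps27 at 80.1%. Only part of Rpl22l1 and Rpl7l1 could be aligned with the parent gene, 34.9% and 22.6% of its coding length. Reads from an identical stretch cannot be told apart, and the sources used here do not say how such reads were counted, which leaves uncertain the values of Rpl6l, Rpl32l, Rps3a2, Rps3a3 and Rps12l1 and of their parents. The table also names 137 copies with -ps in their names. Their sequences were not compared with the members, so the same limit may hold for other members.

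Cluster 7 held the most members. Of the 87, 64 were listed there (73.6%) and 37 raised (42.5%), against 12.1% listed and 3.42% raised among all genes named in the table. Cluster 3 followed with 46 listed (52.9%) and 18 raised (20.7%), against 29.9% and 4.0%. Cluster 2 held fewer members than cluster 9, with 20 listed (23.0%) and 8 raised (9.20%), but both shares lay above those of all genes, 9.07% and 2.89%. In cluster 5, 30 members were listed (34.5%) against 20.6% of all genes, but the 4 raised (4.60%) were a share near that of all genes, 4.32%. In clusters 6 and 9, which raised all 4 surface mucous markers, the raised share lay under that of all genes. Cluster 6 had 19 listed (21.8% against 36.4%) and 7 raised (8.05% against 20.3%), and cluster 9 had 32 listed (36.8% against 38.9%) and 9 raised (10.3% against 26.6%).

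The clusters of blood and stromal markers other than cluster 2 listed few members. Cluster 4, with macrophage and some dendritic markers, listed 2 of 87 (2.30%, against 31.5% of all genes), with 1 raised (1.15% against 18.6%). Cluster 8, with macrophage and dendritic markers, listed 3 (3.45% against 26.4%) and raised 0, against 6.36%. Cluster 10, with neutrophil and T and NK markers, listed 3 (3.45% against 18.9%) and raised 0, against 4.90%. The fibroblast-marker cluster 11 listed 6 (6.90% against 25.7%) and raised 2 (2.30% against 17.0%). Cluster 1, whose listed genes were the fewest, held 1 member, the pseudogene Rpl32l (1.15% against 6.34%), and raised 0, against 1.82%. These shares are descriptions of the pooled libraries, and no test of them was made.

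**Figure D1:**
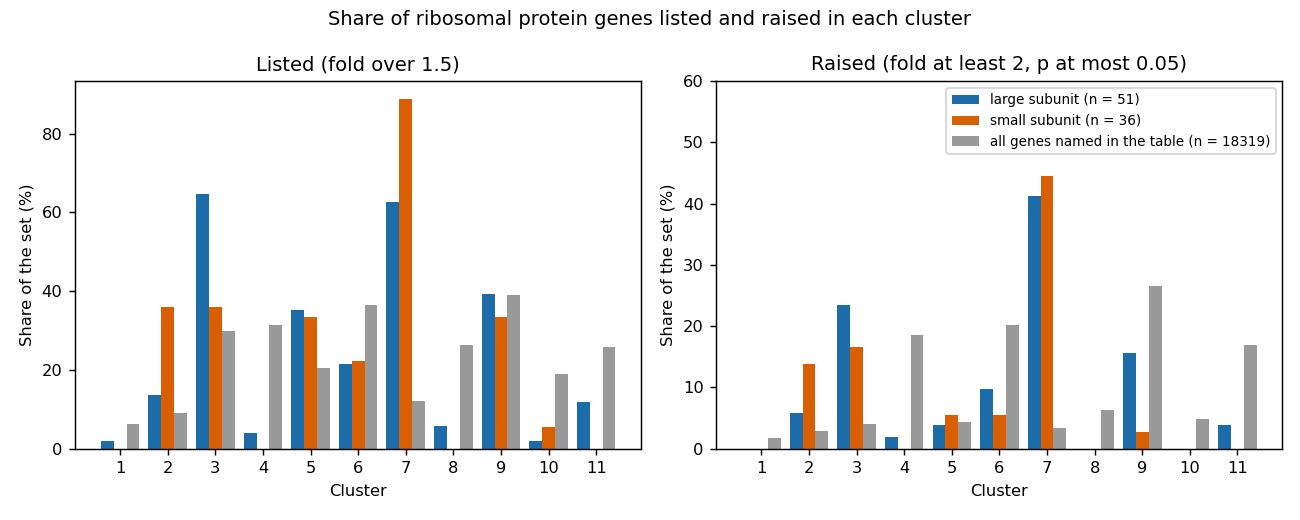
Share of the 51 large-subunit members, the 36 small-subunit members and all 18319 named genes that were listed (left) or raised (right) in each of the 11 clusters, in percent. The bars of both subunits stand above the grey bar of all genes in clusters 2, 3 and 7, and reach at most 5.88% in clusters 1, 4, 8 and 10.

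The subunits did not share the clusters equally. In cluster 7, 32 of 36 small-subunit members were listed (88.9%) and 32 of 51 large-subunit ones (62.7%), although the raised shares were close, with 16 small (44.4%) and 21 large (41.2%). Cluster 3 leaned to the large subunit, with 33 of 51 listed (64.7%) against 13 of 36 (36.1%). It raised 12 large (23.5%) and 6 small (16.7%) members, both shares above the 4.0% of all genes. Cluster 2 leaned to the small subunit, with 13 of 36 listed (36.1%) against 7 of 51 (13.7%). It raised 5 small (13.9%) and 3 large (5.88%) members, both shares above the 2.89% of all genes. In cluster 9, 8 large (15.7%) and 1 small (2.78%) members were raised, both shares under the 26.6% of all genes. The listed shares there were 39.2% and 33.3%, against 38.9% of all genes. All 6 members listed in cluster 11 were of the large subunit, as were the 1, 2 and 3 listed in clusters 1, 4 and 8. Cluster 10 differed, with 1 large and 2 small members listed. These counts are small, and 51 of the 87 members are of the large subunit. Clusters 5 and 6 listed similar shares of both, 35.3% and 33.3%, and 21.6% and 22.2%, in the order large and small.

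Folds were modest where many members were listed. Taken from the authors' deposited table, the median fold of listed members in clusters 7, 2, 3, 5, 6 and 9 was 2.41, 1.98, 1.95, 1.91, 1.90 and 1.75. The median over all genes listed was larger in each of these clusters, at 3.80, 3.72, 2.73, 3.16, 2.57 and 2.46 in the same order. Of the 27 members listed but not raised in cluster 7, 13 had a p that passed and a fold under 2, and 12 had a fold of at least 2 with a p that did not pass. In clusters 6 and 9 every listed member had a p that passed, and the 12 and 23 not raised missed on the fold alone.

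**Figure D2:**
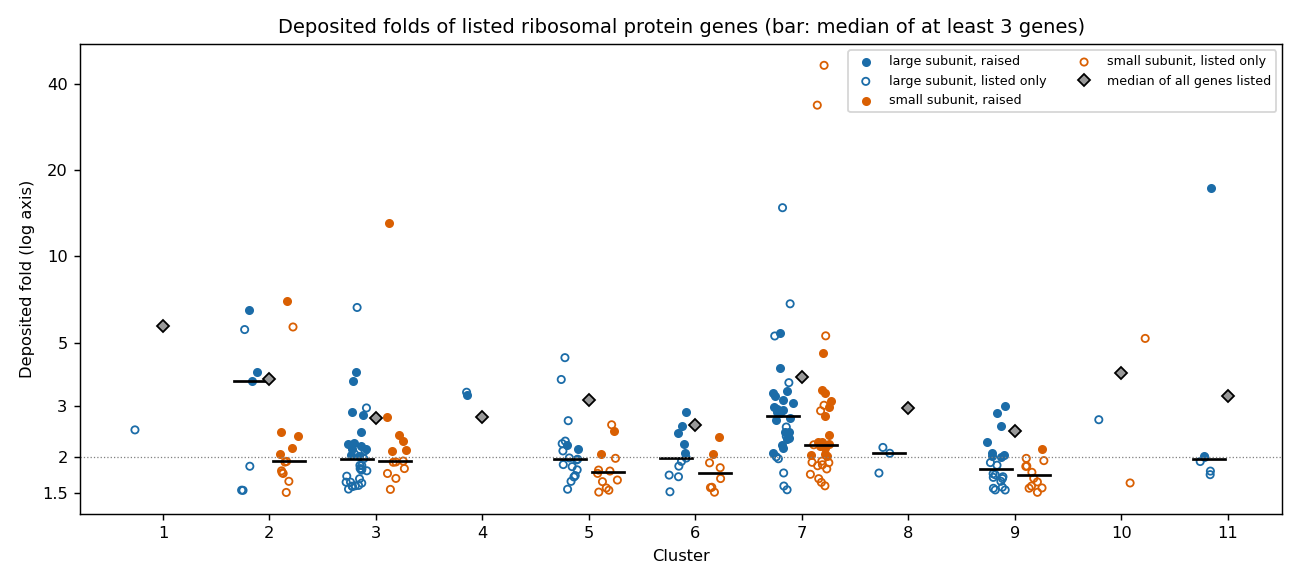
Deposited fold (log axis) of each listed member in each cluster, large subunit in blue and small subunit in orange, filled where raised and open where listed only; black bars are medians of at least 3 members and grey diamonds the median over all genes listed in the cluster. Most points lie between 1.5 and 4, and the highest open points are Rps4l (46.4) and Rps27 (33.7) in cluster 7.

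Although their folds were small, members stood early in the order by p. In cluster 3 they took 15 of the first 50 places while making up 0.840% of the listed genes, in cluster 7 they took 13 with 2.89% of the listed genes, and in cluster 6 they took 11 with 0.285%. Clusters 2 and 9 had 5 and 2 members among the first 50, and clusters 1, 4, 5, 8, 10 and 11 had 0. Rps2 held place 2 in clusters 3 and 6, Rpl4 place 2 in cluster 7, Rpl26 place 3 in cluster 9 and Rps3 place 4 in cluster 2, while the first member of cluster 8, Rpl37a, stood in place 3637. The median place of listed members in clusters 6, 3, 9, 7, 2 and 5 was 0.705%, 1.66%, 5.17%, 6.95%, 15.7% and 32.2% of the way down the list. Among these 6 clusters, place and fold gave different orders, since the median fold was highest in cluster 7.

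**Figure D3:**
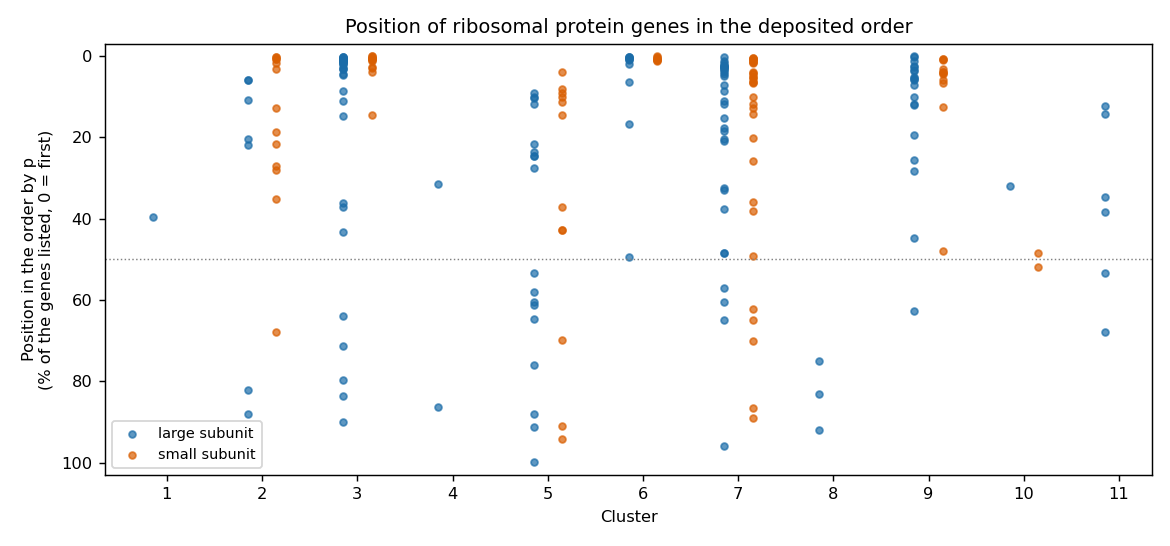
Place of each listed member in the deposited order by p, as a percent of the genes listed in that cluster, with 0 at the top and the dotted line at 50%. Members of clusters 3, 6, 7 and 9 crowd near the top, and the 3 members of cluster 8 lie below the line.

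Rps2, a small-subunit protein at the entry of the messenger RNA channel, Rpl21 and Rpl26 were raised in 4 clusters each, the most of any member. Rps2 (ENSMUSG00000044533.15, chromosome 17, 24718116 to 24721929) had folds of 2.39, 2.35, 2.25 and 2.13 in clusters 3, 6, 7 and 9 per the authors' deposited table, and it was listed at 1.53 in cluster 5. These values lie close together. Rpl26 (chromosome 11, 68901583 to 68906989), which is modified by the ubiquitin-like protein UFM1 on ribosomes at the endoplasmic reticulum, stood at 3.68, 3.09, 2.25 and 2.22 in clusters 3, 7, 9 and 6 per the authors' deposited table. Rpl21 (chromosome 5, 146832890 to 146837032) stood at 2.73, 2.45, 2.42 and 2.06 in clusters 7, 3, 6 and 9 per the authors' deposited table. Rps28 was listed in 5 clusters, as many as Rps2 and Rpl7l1, but raised in cluster 7 alone, at 2.02 per the authors' deposited table. Of the 57 members raised anywhere, 37 (64.9%) were raised in 1 cluster, 14 in 2, 3 in 3 and 3 in 4, while 65.3% of all genes raised anywhere were raised in 1. The 3 raised in 4 clusters were 5.26% of the raised members, against 0.406% among all raised genes.

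Clusters 3, 6 and 9 listed all 4 surface mucous markers. Rpl29, a heparin-binding protein (chromosome 9, 106429454 to 106431568), had the largest fold of any raised large-subunit member in each of them, at 3.95, 2.87 and 3.005 per the authors' deposited table. It was not listed in cluster 7. Rpl22, an RNA-binding protein needed for T cell development, was raised in the same clusters at 2.86, 2.06 and 2.004 per the authors' deposited table, and was not listed in cluster 7 either. Rps18, a protein of the small subunit's head, was raised at 2.75 in cluster 3 and 2.05 in cluster 6, and listed at 1.97 in cluster 9 and 1.81 in cluster 7, per the authors' deposited table. Rpl41, the shortest ribosomal protein, was raised in clusters 3 and 9 at 2.13 and 2.0005 per the authors' deposited table.

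Cluster 3 also had single large values. Rps13 (chromosome 7, 116331505 to 116334195) had a fold of 13.1 there, the largest of any raised member of the cluster, and was listed at 1.94 in cluster 9 per the authors' deposited table. Rpl3, which reaches into the peptidyl transferase centre, was raised in cluster 3 at 2.796 and listed at 1.87 in cluster 9 and 1.70 in cluster 5 per the authors' deposited table. Rpl13a, which also silences translation of inflammatory messenger RNAs outside the ribosome, was raised in cluster 3 at 2.02 and listed at 1.93 in cluster 6 and 1.75 in cluster 9 per the authors' deposited table. Rpl17, a protein of the exit tunnel, was raised in clusters 6 and 9 at 2.57 and 2.03, and listed in clusters 3 and 5 at 2.96 and 3.72, where its p did not pass, per the authors' deposited table. In cluster 9 the next largest raised folds belonged to Rpl27 at 2.83 and Rpl11 at 2.56 per the authors' deposited table, in places 4479 and 1378 of that order.

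Cluster 7 raised 37 members, of which 23 (62.2%) were raised in no other cluster, a share near the 60.5% among all genes raised there. The acidic stalk proteins Rplp1 and Rplp2, which recruit translation factors to the large subunit, were among these. Rplp2 (chromosome 7, 141447370 to 141451585) had the largest raised fold of the cluster, 5.42, and Rplp1 stood at 2.32 per the authors' deposited table. Neither was listed elsewhere. Their base on the ribosome, Rplp0, was not listed in cluster 7 but in clusters 3, 6 and 9, at 1.97, 1.98 and 1.73 per the authors' deposited table, below the fold needed to be raised.

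Other large-subunit genes raised in cluster 7 included Rpl15 at 4.07, Rpl27a at 3.40, Rpl14 at 3.33, Rpl18 at 2.99, Rpl30 at 2.93 and Rpl9 at 2.92 per the authors' deposited table. Among small-subunit genes Rps24 stood at 3.42, Rps26, a protein at the messenger RNA exit, at 3.35, Rps15a at 3.13 and Rps20 at 2.77 per the authors' deposited table. Rps19, the gene most often mutated in Diamond-Blackfan anemia, was raised in cluster 7 at 2.04 and listed in clusters 3, 6 and 9 at 1.91, 1.90 and 1.85 per the authors' deposited table. Rps14, whose loss marks a deletion form of myelodysplastic syndrome, was raised in clusters 5 and 7 at 2.45 and 2.39 per the authors' deposited table. The other 3 raised members of cluster 5 were Rpl19 at 2.20, Rpl14 at 2.12 and the pseudogene Rps12l1 at 2.04 per the authors' deposited table. Several still larger values of cluster 7 did not pass on p. Those of the pseudogene Rps4l, Rps27, the signal-recognition-particle contact Rpl23a and Rpl24 were 46.4, 33.7, 14.8 and 6.83 per the authors' deposited table, and they held places 846, 1440, 1074 and 1264 of the order.

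Copies of ribosomal protein genes stood in cluster 7 beside the members. Of the 137 named genes with a ribosomal protein name and -ps, 80 were listed and 39 raised there (28.5%, against 3.42% of all genes). Clusters 3 and 2 raised 15 (10.9% against 4.0%) and 7 (5.11% against 2.89%). Cluster 9 raised 0, against 26.6% of all genes. The listed -ps copies of cluster 7 had a median fold of 3.73 per the authors' deposited table. Processed pseudogenes of any gene were 901 of the 18319 named genes by the annotation, and the copies with -ps can be among these 901. Processed pseudogenes made up 14.7% and 9.81% of the genes listed in clusters 7 and 2. In cluster 3 they made up 5.08%, near their share of all named genes, and in the other clusters between 2.65% and 4.57%. All 6 pseudogene members were listed in cluster 7 as well, and 3 were raised, Rpl6l at 3.16, Rps3a2 at 2.97 and Rps12l1 at 2.18 per the authors' deposited table. Without the 6, cluster 7 had 34 raised members. The part of reads shared between copies and parents in these values was not tested.

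In cluster 2, where the globin genes and Alas2 were raised, Rps3, a small-subunit protein at the messenger RNA entry, held place 4 by p at 2.15 per the authors' deposited table. Raised small-subunit genes included Rps12 at 6.98 and Rps6 at 2.36 per the authors' deposited table. Rps6, the target of the S6 kinases, was listed in no other cluster. Rps12 (chromosome 10, 23785183 to 23787275) was also listed in cluster 7, at 2.20, while its identical copy Rps12l1 was listed in clusters 3, 5, 7 and 9 but not in cluster 2, per the authors' deposited table. The raised large-subunit genes were Rpl36a at 6.49, Rpl31 at 3.94 and Rpl34 at 3.66 per the authors' deposited table. Rps16 and Rpl28 had folds of 5.67 and 5.56 there per the authors' deposited table, and neither passed on p. Rps23 was raised at 2.04, and its larger fold of 5.17 in cluster 10 did not pass, per the authors' deposited table.

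**Figure D4:**
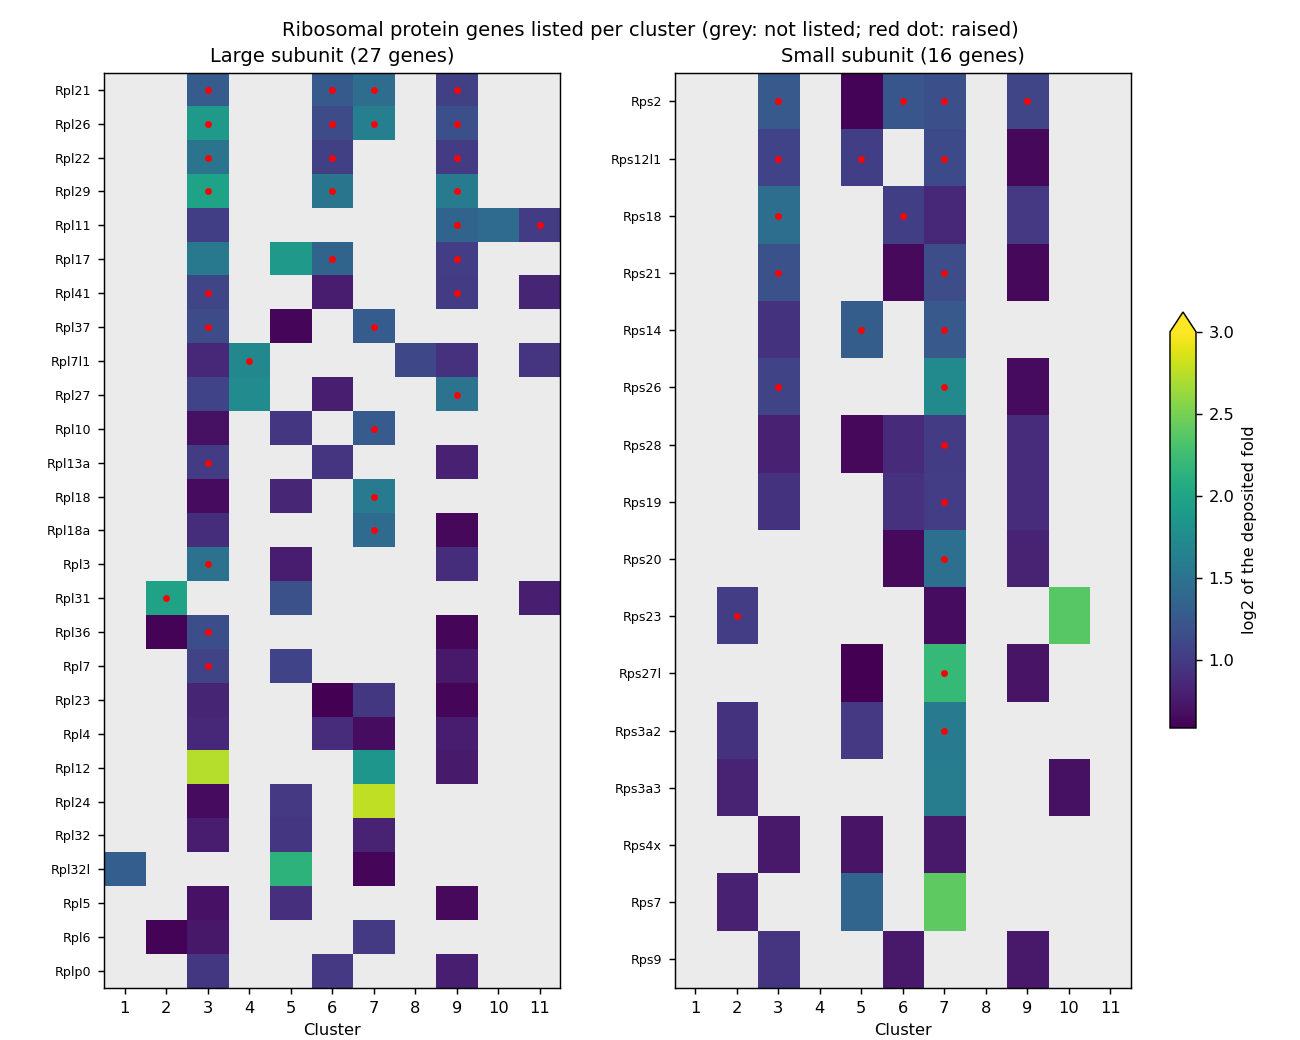
Deposited fold (log2, colour) of the 27 large-subunit and 16 small-subunit members that were listed in at least 3 of the 11 clusters, grey where a gene was not listed and with a red dot where it was raised; genes are ordered by the number of clusters in which they were raised. Rpl21, Rpl26 and Rps2 have 4 dots, and the columns of clusters 3 and 7 hold 15 and 16 of the 53 dots.

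Of the proteins with known partners, Rpl5 and Rpl11, which together bind Mdm2 when ribosome assembly is disturbed, differed in where they were listed. Rpl5 was listed in clusters 3, 5 and 9 at 1.63, 1.88 and 1.57 per the authors' deposited table and raised in none. Rpl11 was raised in clusters 9 and 11 at 2.56 and 2.01, and listed in clusters 3 and 10 at 2.05 and 2.69, where its p did not pass, per the authors' deposited table. In cluster 11 it was 1 of the 2 raised members. The exit tunnel protein Rpl4 was listed in clusters 3, 6, 7 and 9 at 1.82, 1.85, 1.58 and 1.70 per the authors' deposited table, never at 2. Rpl39, which also lines the tunnel, was raised in cluster 7 at 2.15 and listed in cluster 5 at 1.85 per the authors' deposited table.

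The 4 members on the X chromosome followed no single pattern. Rpl36a was listed in cluster 2 only. Rpl10, which joins the large subunit late in its assembly, was raised in cluster 7 at 2.43 and listed in clusters 3 and 5 at 1.62 and 1.95 per the authors' deposited table. Rps4x was listed in clusters 3, 5 and 7 at 1.68, 1.64 and 1.68 per the authors' deposited table, which are nearly the same value, and was not raised. It came first among the members of cluster 5.

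The coding copies and their parents were listed in partly different clusters. Rpl7l1, Rpl22l1 and Rps27l each shared at least 1 listed cluster with the parent gene, and Rpl39l shared none. Rpl39l, a copy of Rpl39 best known from testis (chromosome 16, 10170226 to 10174911), had a fold of 17.4 in cluster 11 per the authors' deposited table, the largest of any raised member in any cluster, and stood at 1.85 in cluster 2. Rpl39 was not listed in cluster 11. Rpl7l1 was the single raised member of cluster 4, at 3.29 per the authors' deposited table, and was listed in clusters 8, 11, 9 and 3 at 2.16, 1.92, 1.91 and 1.81. Its relative Rpl7 was raised in cluster 3 at 2.12 and listed in clusters 5 and 9 at 2.10 and 1.68 per the authors' deposited table. Rpl22l1 was raised in cluster 7 at 3.26 and listed in cluster 3 at 1.63, while Rpl22 was raised in clusters 3, 6 and 9, per the authors' deposited table. Rps27l, which p53 induces, was raised in cluster 7 at 4.61 and listed in clusters 9 and 5 at 1.63 and 1.51 per the authors' deposited table. Its parent Rps27 was listed in cluster 7 only.

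In all, 35 of 51 large-subunit members (68.6%) and 22 of 36 small-subunit members (61.1%) were raised somewhere, against 78.0% of all named genes. Of the 30 members raised nowhere, 15 had no fold of 2 in any cluster, their largest folds running from 1.68 to 1.999 per the authors' deposited table. The other 15 reached a fold of at least 2 with a p that did not pass. Among the first 15 were Rpl4, Rpl5, Rplp0, Rps4x and Rpsa, the last of which also serves as a laminin-binding protein. Rpsa was listed in clusters 7 and 9 at 1.91 and 1.503 per the authors' deposited table.

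Subunit genes outside the name rule showed mixed listings. Rack1, a kinase scaffold on the small subunit, was raised in cluster 2 at 2.21, in place 3, and listed in cluster 7 at 1.86 per the authors' deposited table. The member Rps27a, which is made as a fusion with ubiquitin, was raised at 2.14 in cluster 7 and listed at 1.75 in cluster 5, per the authors' deposited table. Fau, a fusion with a small-subunit protein, was raised in clusters 6 and 4 at 3.18 and 2.55, and listed in clusters 11 and 2 at 2.27 and 1.87, per the authors' deposited table.

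Of 6 genes with elongation factor names, 3 were raised in cluster 7, where 3.42% of all genes were raised. They were Eef1d at 3.57, Eef2 at 2.15 and Eef1b2 at 2.04 per the authors' deposited table. Eef1a1, which delivers aminoacyl-tRNA, came first by p in cluster 2 with a fold of 1.76 per the authors' deposited table and was not raised. Of 15 named initiation factors and other genes with TOP messenger RNAs, 5 were raised in cluster 7 (33.3%, against 3.42% of all genes). Among them were Tpt1 at 3.22 and the poly(A)-binding protein Pabpc1 at 3.12 per the authors' deposited table. Cluster 2 raised 3 (20%, against 2.89% of all genes), with Eif3l at 10.8 per the authors' deposited table. Gas5, a host of small nucleolar RNAs, was raised in clusters 7, 9 and 6 at 2.82, 2.40 and 2.28 per the authors' deposited table.

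Of 21 ribosome assembly genes, 7 were raised in cluster 6 (33.3%, against 20.3% of all genes). Clusters 7 and 5 raised 3 each (14.3%), where 3.42% and 4.32% of all genes were raised. Clusters 9 and 11 raised 4 each (19.0%), where 26.6% and 17.0% of all genes were raised. In cluster 6 these included Bop1 at 4.98, the nucleolar methyltransferase Fbl at 4.57 and the polymerase I subunit Polr1b at 3.60 per the authors' deposited table. Nucleophosmin (Npm1) was raised in clusters 7 and 5 at 4.18 and 2.10 per the authors' deposited table. Mitochondrial ribosomal proteins, which are also encoded in the nucleus, had 23 of 78 raised in cluster 6 (29.5%, against 20.3% of all genes). Their shares were near those of all genes in clusters 9, 11 and 7, with 22 raised (28.2% against 26.6%), 13 (16.7% against 17.0%) and 3 (3.85% against 3.42%). Cluster 5 raised 7 of them (8.97% against 4.32%) and cluster 4 raised 10 (12.8% against 18.6%). Clusters 1, 8 and 10 raised 0, against 1.82%, 6.36% and 4.90% of all genes. Of 12 genes of the S6 kinases and TOR signalling, 6 were raised in cluster 4 (50%, against 18.6% of all genes) and 0 in cluster 7, where 3.42% of all genes were raised. Mtor itself was raised in clusters 4 and 11 at 5.41 and 4.07 per the authors' deposited table. The table named 0 genes of the mitochondrial genome by their mt- names.

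**Figure D5:**
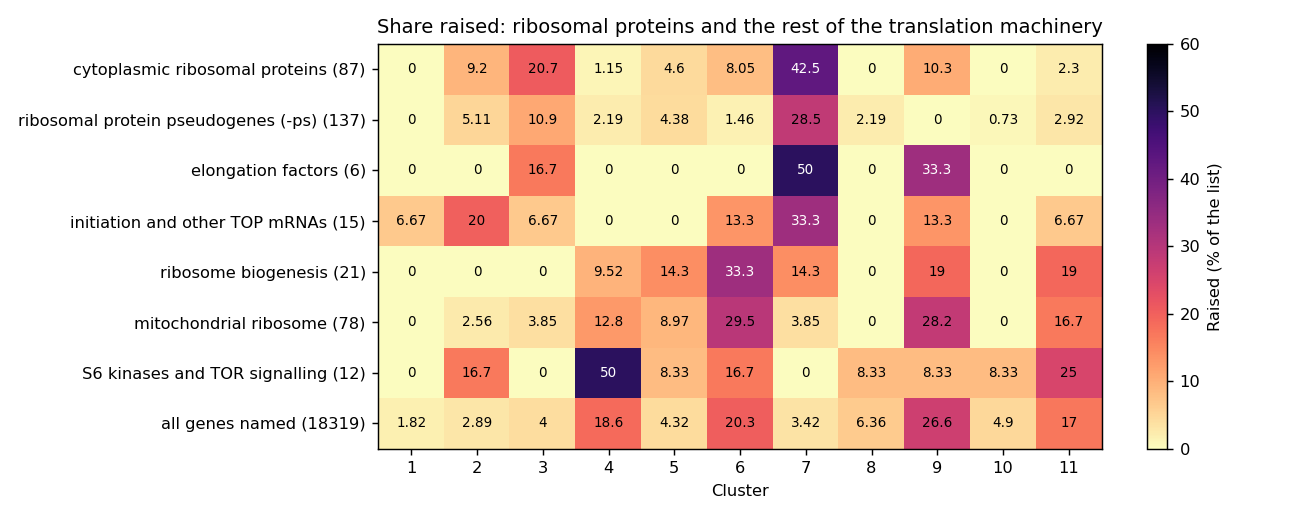
Share raised, in percent of each list, of the 87 members, 6 lists of related genes and all named genes in the 11 clusters. The members, the -ps pseudogenes and the elongation factors have their highest value in cluster 7 (42.5, 28.5 and 50), while assembly genes and the mitochondrial ribosome have theirs in cluster 6 (33.3 and 29.5); all genes stand at 3.42 in cluster 7 and 20.3 in cluster 6.

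Promoters are shown because the members were listed together in cluster 7 and many of their messenger RNAs are known to begin with pyrimidines. RefSeq windows from 250 bases before to 50 after an annotated start (build GRCm38.p6) were found for 62 members. A tract of at least 8 pyrimidines beginning with C, on the gene's strand within 25 bases of the start, was in 34 of the 62 (54.8%), against 17.7% of all 27025 genes with a window. The windows below hold 30 bases each, with the longest tract in capitals. They are the first 7 by number of clusters raised, then by largest fold, among standard members with 1 annotated start and a tract.
Rps26, chr10:128626484-128626513, minus strand: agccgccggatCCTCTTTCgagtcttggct
Rpl14, chr9:120571501-120571530, plus strand: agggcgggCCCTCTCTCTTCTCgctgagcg
Rps18, chr17:33955648-33955677, minus strand: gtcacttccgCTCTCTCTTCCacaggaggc
Rpl11, chr4:136053369-136053398, minus strand: aggccacggggccggaagtCTCCCTCTCTC
Rps12, chr10:23787185-23787214, minus strand: cggccaccgccggCCTTTTCCCCTgccgcc
Rplp2, chr7:141447636-141447665, plus strand: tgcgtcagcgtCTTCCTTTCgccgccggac
Rpl15, chr14:18270968-18270997, minus strand: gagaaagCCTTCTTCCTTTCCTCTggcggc

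The tracts ran from 8 bases in Rps26 to 17 in Rpl15. Rpl15 was raised in cluster 7, Rpl14 in clusters 5 and 7, Rps12 in cluster 2 and Rps18 in clusters 3 and 6, so the shown tracts are not those of 1 cluster. Of the raised members with a window, a tract was held by 16 of 25, 4 of 12, 4 of 7 and 1 of 6 in clusters 7, 3, 2 and 9, against 11 of 23 among members raised nowhere. Rps2 and Rpl26 had no such tract near their annotated start, and annotated starts can lie some bases from the start in use.

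Among 5 short motifs searched on both strands of the full window, the ETS-family core CCGGAAG was in 41.9% of members and 9.93% of all genes, CTTTCC in 51.6% and 29.3%, and the YY1-family core AAGATGG in 16.1% and 7.28%. CTTTCC can lie inside a pyrimidine tract, so those counts overlap. TATAAA was in 12.9% of members and 15.7% of all genes, and CCAAT in 30.6% and 41.1%. Rps2, Rpl26 and Rps18 each held CCGGAAG. A match says only that these letters are in the window.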

How the data were processed

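Dissociated cells of both tumors were encapsulated on inDrop and made into libraries by the TruDrop method, per the labels' protocols. The submitters' processing notes name mm10, STAR 2.7.3a, Partek and DESeq2 3.5, with no role given. The only values are the authors' deposited linear folds (a ratio) and p-values for 11 clusters, per the file headers; the sources used here give no test, adjustment, cell filter or doublet treatment. There are 0 columns of per-sample values, 1 library per tumor type and no replicates.

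Members were counted with pandas 2.3.3, and the counting was checked on simulated tables. No test was run. The members and lists were chosen with earlier results of these data known. Genes were named by a rule (in each cluster, the 3 raised members of largest fold of each subunit and the first by p; members raised or listed in most clusters; copies with their parents; Fau and Rack1); others were chosen after their values were seen, as was the pyrimidine tract. Some items that the rule would name are not reported here. Gene coordinates, counted from 1, came from GENCODE M21 (GRCm38), in which 97.8% of names were found. Copies were aligned with Biopython 1.88 (local alignment to the best-matching coding sequence of the parent). Alternatives changed the fold and p thresholds and the member list.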

Additional observations from a re-analysis of the deposited data

How the results depend on the processing

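The count of raised members moved by over 1.5 times in 22 of 77 comparisons of a cluster and an alternative, and the median fold in 0 of 32. For the median only the p filter and the member list were changed, and every listed fold lies above 1.5. The 0 of 32 therefore says little about how stable the medians are. With a fold of at least 1.5, raised members in clusters 2, 3, 5, 6, 9 and 11 numbered 17, 38, 14, 19, 32 and 6. Among all 18319 named genes the same cut gave 718, 875, 929, 4968, 6938 and 3765 in the same order. At that cut the share of members in cluster 5 lay above that of all genes, and in cluster 9 it lay near it. The shares in clusters 2 and 3 stayed above that of all genes, and those in clusters 6 and 11 stayed under it. With a fold of at least 3 the raised members in clusters 2, 3, 5, 6, 7, 9 and 11 numbered 4, 3, 0, 0, 11, 1 and 1. All named genes were not counted at that cut, so it is not known whether these shares lay above those of all genes. With no filter on p raised members numbered 1 in cluster 1, 2 in clusters 4, 8 and 10, and 11 in cluster 5. Among all named genes there were 1035 in cluster 1, 4258, 3719 and 2907 in clusters 4, 8 and 10, and 2977 in cluster 5. A p of at most 0.01 left 2 in cluster 5. Without the 7 paralog names (Rpl3l, Rpl7l1, Rpl10l, Rpl22l1, Rpl39l, Rps4l and Rps27l, of which 5 were in the table) cluster 4 had 0 and cluster 11 had 1. With subunit genes outside the name rule added, cluster 4 had 2, the added one being Fau. Leaving out the 6 pseudogene members, chosen after seeing the data, moved no count or median by over 1.5 times. No median could be given for clusters 1 and 4, which list under 3 members, nor, with the p filter, for clusters 8 and 10. Medians have no spread over replicates, so the same 1.5 times was used for them. No paired analysis was possible because there is 1 library per tumor type and the table does not separate the tumors. Leaving out a library was not possible for the same reason. The depth behind each fold is unknown.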
